A study of Mus musculus with 23 samples.

Results

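Oncostatin M (Osm) and the other ligands of the interleukin-6 (IL-6) family, their receptor chains and 2 of their best known response genes were followed in mouse brain tumors grown from either of 2 glioma lines, GL261 or CT2A. The set holds 10 genes of the 35576 genes in the tables: the ligands Osm, Il6, Lif and Clcf1, the receptor chains Osmr, Il6ra, Il6st and Lifr, the feedback inhibitor Socs3 and the secreted protease inhibitor Serpina3n. These genes were chosen from results already known in the same libraries, so that their levels and differences between groups are given as a description, without a test. The tests below concern other genes of the pathway and measures that the choice of the 10 genes did not use. The list of other genes was itself made with earlier results of these data known, and its p-values are not independent of them. All 10 genes had estimated reads in all 23 libraries.

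GL261 and CT2A were both made with the carcinogen methylcholanthrene in mouse brain, and the tumors were grown in the brains of young adult female albino C57BL/6 mice, which have an intact immune system. Bulk tumors came from GL261-luc2 (4 libraries) and CT2A-luc (4 libraries), lines that carry luciferase. Tumor cells sorted with beads against a human surface tag came from sublines of GL261 (4 libraries) and CT2A (3 libraries) that carry luciferase and the tag and were grown as adherent cultures before implantation. The same tagged lines grown as neurospheres before implantation gave 3 sorted GL261 and 5 sorted CT2A libraries. Each group is 1 line, so that a difference between GL261 and CT2A is a difference between a pair of lines. The tag and luciferase are not in the mouse transcriptome that was used, and the sort could not be checked through them.

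The labels of the 5 CT2A neurosphere-derived libraries conflict. Their titles name a GL261 subline, whereas the cell line label and the description name CT2A, and they were taken as CT2A. Across 12440 genes, their log2 CPM correlated at 0.940 to 0.981 with the mean of the sorted CT2A libraries and at 0.736 to 0.748 with that of the sorted GL261 libraries, and every line comparison of neurosphere-derived tumors rests on this assignment. The libraries held 34622622 to 42608400 estimated reads in GL261 bulk tumors and 7395846 to 15263587 in the other 5 groups. Bulk and sorted libraries differed in sequencer and read length, so that tissue and library type cannot be told apart between them. The authors' methods also name different library kits for bulk and sorted tumors. Sorted libraries were not free of other cells: the summed CPM of 11 macrophage markers was 228 to 1445 in sorted GL261, 971 to 2065 in sorted CT2A, 6050 to 8901 in neurosphere-derived GL261 and 709 to 3637 in neurosphere-derived CT2A libraries, against 818 to 1314 in bulk tumors of both lines, and none of these markers was at 0 throughout a group. Library 81 of sorted GL261 stood apart, with the lowest macrophage sum of all 23 libraries. The Lif difference in sorted cells is given with and without it. Leaving it out raised the genes called by edgeR between the sorted lines from 7000 to 8922. Between neurosphere-derived and adherent-derived GL261, it raised them from 1167 to 2435.

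Ligands of the IL-6 family signal through gp130, the chain encoded by Il6st, which pairs with a second chain that sets which ligand binds. IL-6 first binds its own receptor Il6ra, leukemia inhibitory factor (Lif) uses Lifr with gp130, mouse oncostatin M uses chiefly Osmr with gp130, and cardiotrophin-like cytokine factor 1 (Clcf1) acts on cells through Cntfr, Lifr and gp130. The chains carry Janus kinases that phosphorylate STAT3, which induces, among other genes, Socs3, the inhibitor that shuts the receptor off, and Serpina3n, an acute phase gene known from reactive astrocytes. In gliomas of patients and mice, oncostatin M is known as a macrophage product that acts on tumor cells through its receptor.

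Promoters of the genes that carry the pattern are shown from RefSeq (GRCm38.p6), each from 250 bases before to 50 bases after a RefSeq gene start, 5′ to 3′ on the gene's strand, because they show where the letters bound by STAT dimers or AP-1 occur. Capitals mark matches to TTCNNNGAA, the STAT letters, or TGANTCA, the AP-1 letters; both read the same on either strand and no match overlapped another in these windows. Socs3 is shown as the window that holds STAT letters, Osmr as the receptor and Serpina3n as the response gene with the widest gap between the lines.
Socs3, chr11:117969317-117969616, minus strand: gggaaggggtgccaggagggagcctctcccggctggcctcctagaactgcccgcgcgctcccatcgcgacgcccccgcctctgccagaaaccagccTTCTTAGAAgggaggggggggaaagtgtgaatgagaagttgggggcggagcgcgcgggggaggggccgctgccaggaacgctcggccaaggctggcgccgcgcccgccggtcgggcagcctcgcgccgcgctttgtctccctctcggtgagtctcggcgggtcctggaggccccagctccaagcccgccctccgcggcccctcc
Osmr, chr15:6874264-6874563, minus strand: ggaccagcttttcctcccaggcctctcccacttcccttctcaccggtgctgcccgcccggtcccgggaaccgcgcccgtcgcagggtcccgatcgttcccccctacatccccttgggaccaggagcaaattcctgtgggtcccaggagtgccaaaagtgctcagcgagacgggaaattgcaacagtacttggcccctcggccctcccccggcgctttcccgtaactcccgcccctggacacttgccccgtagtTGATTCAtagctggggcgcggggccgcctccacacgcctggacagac
Serpina3n, chr12:104406458-104406757, plus strand: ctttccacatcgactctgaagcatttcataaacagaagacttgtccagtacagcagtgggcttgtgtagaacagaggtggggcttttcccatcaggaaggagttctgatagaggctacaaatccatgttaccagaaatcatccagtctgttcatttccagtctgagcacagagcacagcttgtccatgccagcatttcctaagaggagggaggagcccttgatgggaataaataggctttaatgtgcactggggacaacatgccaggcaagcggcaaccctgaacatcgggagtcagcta
Of the 10 genes, 8 had an entry among the RefSeq promoters (Osm and Clcf1 had none), with 9 windows in all because Lifr had 2. TTCNNNGAA occurred in 1 of the 9 windows, that of Socs3, where TTCTTAGAA began 154 bases before the RefSeq start, and in 8.3% of all 32851 promoter windows of this length. TGANTCA occurred in the windows of Osmr, Lif and Il6, and in 7.81% of all windows. The RefSeq start can differ from the gene bounds of the annotation used for the counts, given with each gene, and the windows of Socs3 and Osmr lie within those bounds. A match of letters is a description of the window and not a bound site.

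Oncostatin M was the ligand with the widest range, from 0.838 to 116 CPM over the 23 libraries, CPM being the read count scaled to library size after TMM normalization. Osm (chr11:4236420-4241026, plus strand) had 4.75, 2.24, 2.13 and 4.52 CPM in GL261 bulk tumors 405, 412, 414 and 417, and 0.838, 1.77, 1.3 and 1.85 CPM in CT2A bulk tumors 39, 40, 47 and 48. In sorted cells it had 13.4, 11.5, 12.2 and 13.4 CPM in GL261 libraries 81 to 84 and 3.22, 3.80 and 3.57 CPM in CT2A libraries 69 to 71. In neurosphere-derived libraries it had 116, 79.0 and 83.1 CPM in GL261 libraries 89 to 91 and 12.6, 7.32, 34.1, 31.4 and 9.90 CPM in CT2A libraries 57 to 61. GL261 lay above CT2A without overlap in all 3 kinds of tumor, and the neurosphere-derived libraries lay highest, although the CT2A neurosphere-derived range overlapped sorted GL261. The log2 fold change of CT2A against GL261 was -1.20 ± 0.43 (SE) in bulk, -1.89 ± 0.21 in sorted and -2.31 ± 0.48 in neurosphere-derived libraries. Neurosphere-derived against adherent-derived cells gave 2.91 ± 0.18 in GL261 and 2.40 ± 0.56 in CT2A. CT2A bulk values rest on 9 to 20 reads per library. Over all genes tested, the ranges of the lines lay apart for 32% in bulk, 58.4% in sorted and 58.4% in neurosphere-derived libraries. Between neurosphere-derived and adherent-derived cells, ranges lay apart for 26.3% of all genes in GL261 and 12.6% in CT2A. These shares stand beside every statement on overlap of ranges given here for single genes.

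Macrophage markers moved with Osm in part. In GL261, 10 of 11 macrophage markers passed the test as higher in neurosphere-derived than in adherent-derived libraries, where the marker sum and Osm both lay apart. In neurosphere-derived tumors, all 11 passed as lower in CT2A. In adherent sorted cells, the marker sums of the lines overlapped, and Osm was as high in library 81, with a marker sum of 228 CPM and 13.4 CPM of Osm, as in library 82, with 1445 and 11.5 CPM. Among CT2A neurosphere-derived libraries, the highest Osm value of 34.1 CPM was in library 59, which also had the highest marker sum of 3637 CPM, whereas library 60 had 31.4 CPM of Osm at a sum of 1453 CPM. The part of macrophages in the Osm levels was not tested. In bulk libraries, fewer cells of a type and less RNA per cell cannot be told apart.

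**Figure D1:**
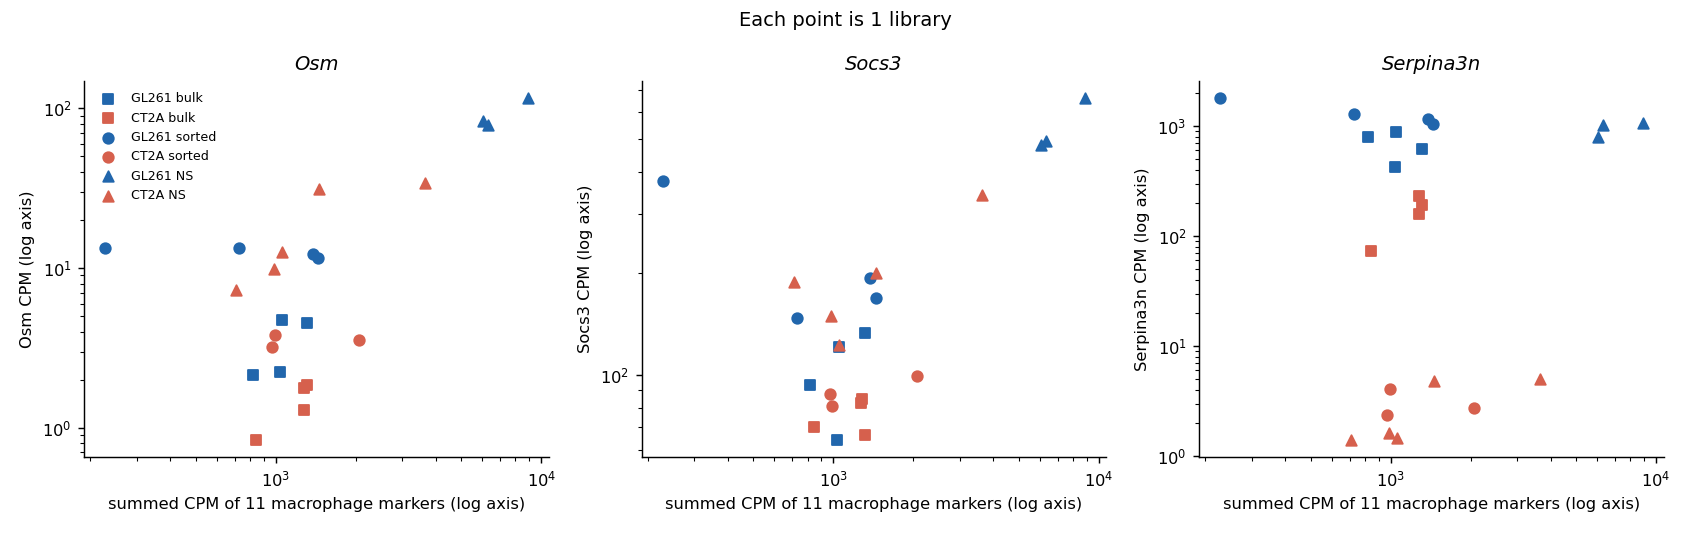
Level of Osm, Socs3 and Serpina3n (CPM, log axis) against the summed CPM of 11 macrophage markers (log axis), 1 point per library, blue for GL261 and red for CT2A, squares for bulk, circles for sorted and triangles for neurosphere-derived tumors. The 3 GL261 neurosphere-derived libraries, with marker sums of 6050 to 8901 CPM, hold the highest Osm and Socs3 values. Serpina3n separates by line in each kind of tumor. The marker sums of the lines overlap in bulk and adherent sorted libraries and lie apart in neurosphere-derived ones. The part of macrophages was not tested.

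Clcf1 showed the opposite order, with every CT2A library above every GL261 library. Clcf1 (chr19:4214238-4223490, plus strand) had 40.7, 55.8, 45.8 and 44.2 CPM in CT2A bulk tumors against 11.3, 7.94, 9.55 and 12.3 CPM in GL261 bulk tumors. Sorted CT2A cells had 51.8, 42.2 and 42.9 CPM, against 3.79, 4.11, 5.09 and 3.76 CPM in sorted GL261 cells. Neurosphere-derived CT2A had 46.0, 52.9, 40.2, 86.2 and 43.7 CPM, against 9.47, 9.45 and 6.33 CPM in GL261. CT2A was higher by 2.24 ± 0.22, 3.39 ± 0.18 and 2.63 ± 0.30 on the log2 scale in bulk, sorted and neurosphere-derived libraries, or 4.73-fold, 10.5-fold and 6.20-fold. The CT2A means in bulk, sorted and neurosphere-derived libraries were 46.6 ± 6.51 (SD, n = 4), 45.6 ± 5.35 (n = 3) and 53.8 ± 18.7 CPM (n = 5). GL261 had 10.3 ± 1.93 CPM (n = 4) in bulk and 4.19 ± 0.623 CPM (n = 4) in sorted cells.

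Lif, which maintains mouse embryonic stem cells in culture and lies 16.5 kb from Osm with no other gene of the tables between them (chr11:4257557-4272514, plus strand), was scattered. It had 7.55, 6.95, 7.31 and 14.1 CPM in GL261 bulk and 16.7, 14.6, 11.1 and 12.1 CPM in CT2A bulk tumors. In sorted GL261 cells, library 81 had 11 CPM and the other 3 had 1.80, 2.23 and 2.16 CPM, against 10.2, 8.99 and 4.98 CPM in sorted CT2A. Neurosphere-derived GL261 had 1.46, 1.04 and 3.41 CPM, below the CT2A values of 8.90, 7.55, 4.20, 14 and 8.13 CPM. The sorted difference therefore turned on library 81: CT2A against GL261 was 0.85 ± 0.66 with it and 1.90 without it on the log2 scale. Thus Osm and Lif, neighbors on chromosome 11, had opposite orders of the lines in neurosphere-derived tumors, with log2 fold changes of -2.31 and 2.07.

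Il6, the acute phase cytokine of macrophages and stromal cells (chr5:30013114-30019981, plus strand), was near the limit of detection, with 1 to 19 estimated reads per library. Its highest values were 1.70, 1.84 and 1.83 CPM in GL261 neurosphere-derived libraries, above all other groups. The 5 CT2A neurosphere-derived libraries had 1.14, 0.234, 1.15, 1.20 and 0.443 CPM, and the other 4 groups stayed between 0.108 and 0.701 CPM. Il6 was too low to enter the comparisons of sorted cells and of neurosphere-derived with adherent-derived cells, and a difference there was not detectable at this depth.

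**Figure D2:**
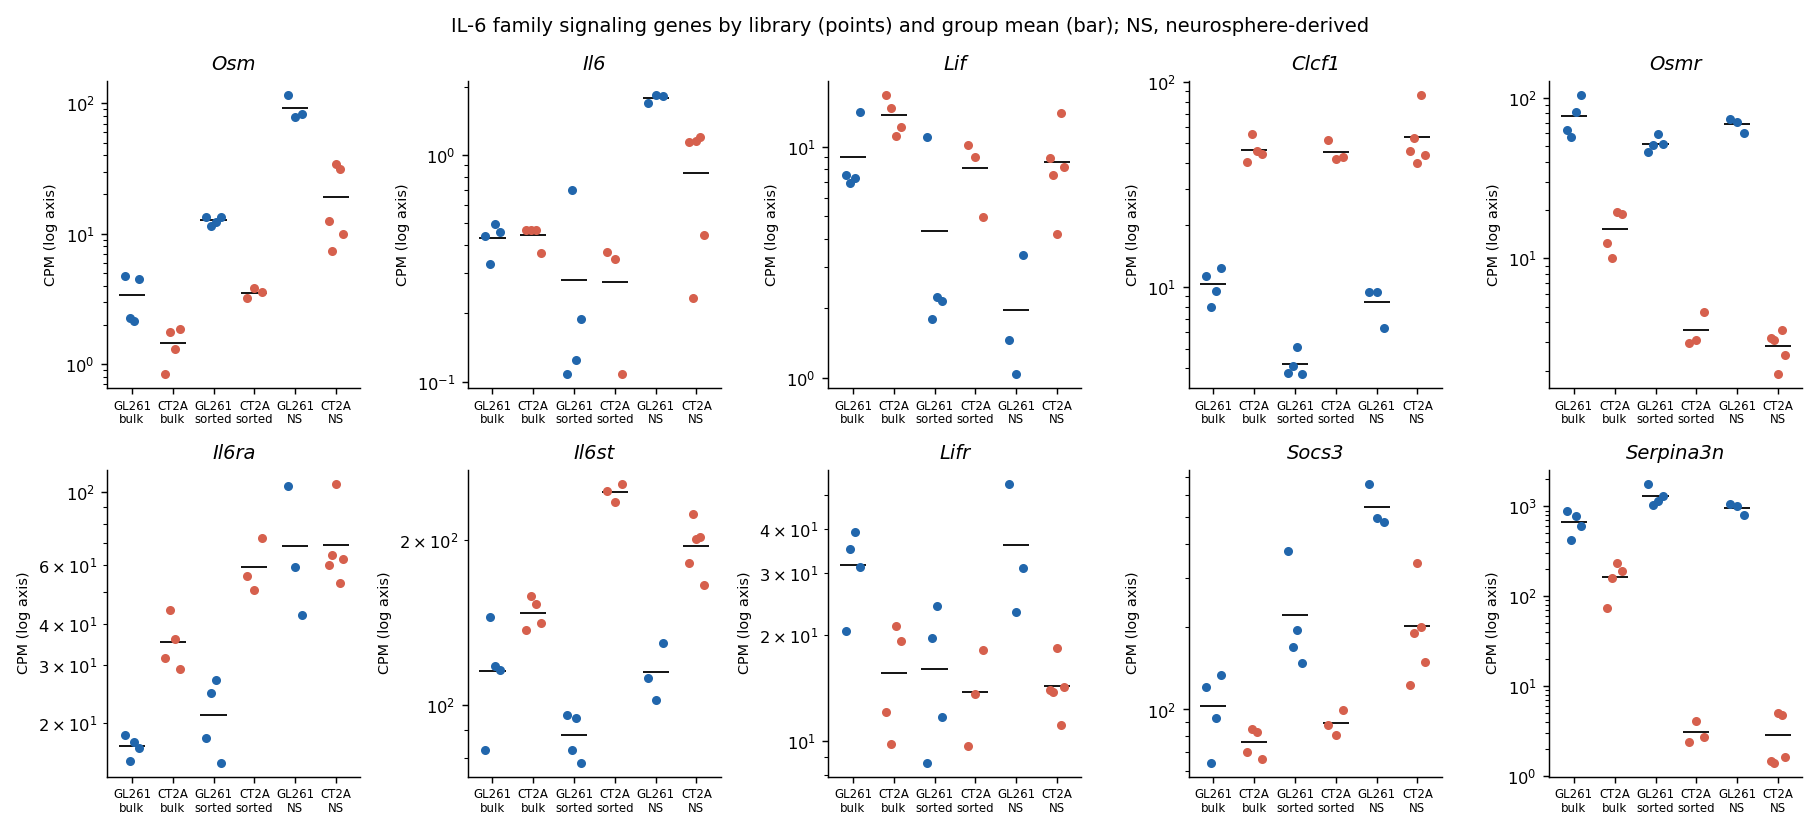
CPM (log axis) of each of the 10 genes in each of the 23 libraries (points, blue for GL261 and red for CT2A), with the group mean as a bar, for bulk, sorted and neurosphere-derived (NS) tumors. Osmr and Serpina3n lie apart by line with GL261 above, Clcf1 lies apart with CT2A above, and Osm is highest in GL261 neurosphere-derived libraries at 79.0 to 116 CPM.

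The oncostatin M receptor was higher in every GL261 library than in any CT2A library. Osmr (chr15:6813577-6874969, minus strand), the chain specific to oncostatin M and interleukin-31, had 62.9, 56.8, 82.0 and 104 CPM in GL261 bulk tumors and 12.5, 10.1, 19.4 and 18.8 CPM in CT2A bulk tumors. Sorted GL261 cells had 45.9, 51.0, 59.2 and 51.3 CPM and sorted CT2A cells 2.97, 3.11 and 4.65 CPM. Neurosphere-derived GL261 had 74.1, 71.1 and 59.9 CPM and CT2A 3.18, 3.11, 1.91, 3.60 and 2.51 CPM. The lowest GL261 library had 45.9 CPM and the highest CT2A library 19.4 CPM. CT2A was lower by -2.27 ± 0.28 in bulk, -3.90 ± 0.21 in sorted and -4.61 ± 0.20 in neurosphere-derived libraries on the log2 scale, the last 24.5-fold. CT2A bulk tumors, at 10.1 to 19.4 CPM, lay above sorted CT2A cells, whereas GL261 bulk tumors overlapped sorted GL261 cells. The difference between the lines was smaller in bulk than in sorted libraries by 1.53 ± 0.35 on the log2 scale.

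The shared chain gp130 (Il6st, chr13:112464070-112510086, plus strand) was expressed in all libraries and was higher in CT2A. It had 246, 235 and 254 CPM in sorted CT2A against 95.9, 82.6, 94.8 and 78.4 CPM in sorted GL261, which did not overlap. Neurosphere-derived CT2A had 182, 224, 201, 203 and 166 CPM against 112, 102 and 130 CPM in GL261. In bulk tumors the lines overlapped, with 137, 158, 153 and 141 CPM in CT2A and 82.8, 145, 118 and 116 CPM in GL261. The log2 fold change was 1.42 ± 0.12 in sorted, 0.72 ± 0.13 in neurosphere-derived and 0.44 ± 0.14 in bulk libraries. The bulk value did not pass the threshold in 10 of its alternatives, among them each setting that left out a CT2A library, where it stayed between 0.34 and 0.51.

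The IL-6 receptor chain lay apart between the lines in bulk and sorted libraries and overlapped in neurosphere-derived ones. Il6ra (chr3:89864059-89913196, minus strand) had 18.1, 24.6, 27.1 and 15.2 CPM in sorted GL261 and 55.6, 50.4 and 72.6 CPM in sorted CT2A, without overlap. Bulk tumors had 18.4, 15.4, 17.6 and 16.8 CPM in GL261 and 31.4, 43.9, 36.0 and 29.1 CPM in CT2A, again without overlap. In neurosphere-derived libraries, GL261 had 104, 59.2 and 42.5 CPM and CT2A 60.3, 64.4, 106, 53.2 and 62.8 CPM, which overlapped. The log2 fold change of CT2A against GL261 was 1.43 ± 0.23 in sorted and -0.03 ± 0.30 in neurosphere-derived libraries, and the difference of the differences was -1.51 ± 0.41, which ran from -1.77 to -0.99 over its alternatives and was -0.99 without library 89. Library 59, with the highest macrophage sum among CT2A neurosphere-derived libraries, also had the highest Il6ra value of that group, and library 89, with the highest among GL261, had the highest Il6ra value there. The part of macrophages, which carry this receptor, was not tested.

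Lifr, the second chain for Lif and Clcf1, lies 215.6 kb from Osmr with no other gene of the tables between them (chr15:7090614-7197489, plus strand), and it did not share the split of Osmr in sorted cells. Sorted GL261 had 8.66, 19.6, 24.1 and 11.7 CPM and sorted CT2A 9.66, 13.6 and 18.1 CPM, which overlapped. Bulk tumors had 20.5, 35.2, 39.3 and 31.2 CPM in GL261 and 12.1, 9.76, 21.2 and 19.2 CPM in CT2A. Neurosphere-derived GL261 had 53.9, 23.2 and 31.1 CPM, all above the CT2A values of 13.9, 13.8, 18.4, 11.1 and 14.2 CPM. The log2 fold changes were -0.27 ± 0.38, -0.94 ± 0.27 and -1.38 ± 0.26 in sorted, bulk and neurosphere-derived libraries. The bulk value did not pass the threshold in 6 of its alternatives, with RSEM counts (-0.82) and without library 414, 417, 39, 40 or 48.

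Levels of different genes were compared by TPM, which accounts for transcript length. Among the ligands, the highest mean TPM belonged to Osm in neurosphere-derived GL261 (65.3 ± 11.2 TPM, SD, n = 3), and to Clcf1 in all 3 CT2A groups, at 39.8 ± 7.18 TPM in bulk, 33.3 ± 2.65 TPM in sorted and 37.0 ± 16.3 TPM in neurosphere-derived tumors. TPM was summed over all transcripts, which for Clcf1 include a retained intron, and its coding transcript alone was not ranked. In sorted CT2A, Osm had 2.67 ± 0.343 TPM and Lif 3.81 ± 1.70 TPM. Among receptor chains, sorted CT2A cells had 53.4 ± 1.88 TPM of Il6st, 18.7 ± 4.53 TPM of Il6ra, 3.05 ± 0.352 TPM of Lifr and 1.02 ± 0.283 TPM of Osmr (n = 3). Sorted GL261 cells had 22.8 ± 1.81 TPM of Il6st, 18.8 ± 5.39 TPM of Osmr, 6.45 ± 1.83 TPM of Il6ra and 3.71 ± 2.23 TPM of Lifr (n = 4). Osmr was thus close to Il6st in sorted GL261, where their ranges of 12.0 to 25.1 and 20.2 to 24.1 TPM overlapped, and was the lowest of the 4 chains in sorted CT2A.

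**Figure D3:**
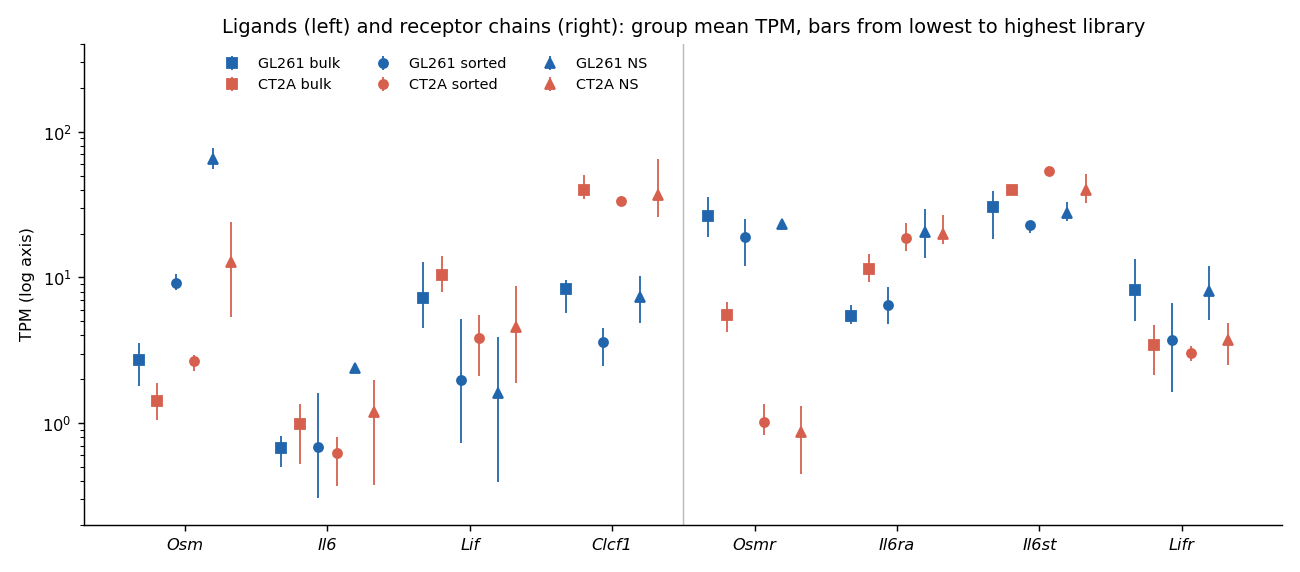
Group mean TPM (log axis) of the 4 ligands and the 4 receptor chains, with bars from the lowest to the highest library, blue for GL261 and red for CT2A, squares for bulk, circles for sorted and triangles for neurosphere-derived tumors. Osmr is near 20 TPM in sorted GL261 and near 1 TPM in sorted and neurosphere-derived CT2A, whereas Clcf1 shows the reverse order of the lines.

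Socs3, the feedback inhibitor whose promoter window holds the STAT letters (chr11:117966079-117970047, minus strand), was highest in neurosphere-derived GL261, with 661, 494 and 479 CPM against 123, 189, 341, 200 and 149 CPM in CT2A. Sorted GL261 had 375, 169, 194 and 147 CPM, the first in library 81, and sorted CT2A 87.7, 80.8 and 99.2 CPM. Bulk tumors overlapped, with 121, 64.1, 93.3 and 133 CPM in GL261 and 70.2, 85.0, 82.8 and 66.3 CPM in CT2A. GL261 lay above CT2A in both kinds of sorted libraries. The log2 fold change was -1.36 ± 0.32 in sorted, -1.49 ± 0.29 in neurosphere-derived and -0.38 ± 0.27 in bulk libraries, and the sorted value ran from -1.52 to -0.99 over its alternatives. Neurosphere-derived cells had more Socs3 than adherent-derived cells, by 1.34 ± 0.32 in GL261 and 1.13 ± 0.29 in CT2A on the log2 scale. The GL261 value did not pass the threshold without library 82, 83, 84, 89, 90 or 91. The CT2A value passed by DESeq2 and not by edgeR. As for Osm, macrophage markers were higher in the GL261 neurosphere-derived libraries. In neurosphere-derived CT2A, the highest Socs3 value was in library 59, which also had the highest macrophage sum of that group. The part of macrophages was not tested.

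Serpina3n (chr12:104406729-104414329, plus strand) showed the widest gap of all members. Sorted GL261 cells had 1793, 1038, 1153 and 1293 CPM, and sorted CT2A cells had 2.35, 4.04 and 2.71 CPM, from 19 to 35 reads per library. Neurosphere-derived GL261 had 1074, 1015 and 803 CPM and CT2A 1.47, 1.4, 4.97, 4.81 and 1.63 CPM. In bulk tumors, GL261 had 885, 426, 790 and 612 CPM and CT2A 73.3, 160, 232 and 193 CPM. Every GL261 library was above every CT2A library, but CT2A bulk tumors lay far above CT2A sorted cells, whereas GL261 bulk tumors lay below sorted GL261 cells and overlapped the neurosphere-derived ones. CT2A was lower by -8.81 ± 0.34 in sorted, -8.41 ± 0.46 in neurosphere-derived and -2.0 ± 0.40 in bulk libraries on the log2 scale, which is 448-fold, 341-fold and 4.01-fold. The difference between the lines was smaller in bulk by 6.72 ± 0.55. Neurosphere-derived against adherent-derived cells gave log2 fold changes of -0.42 ± 0.22 in GL261 and -0.11 ± 0.52 in CT2A. Bulk tumors hold normal brain, where astrocytes can express Serpina3n, and the summed CPM of 6 astrocyte markers was 684 to 3039 in GL261 bulk and 1008 to 2071 in CT2A bulk against 365 to 522 in sorted CT2A libraries; their part was not tested.

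Serpina3n lies in a cluster of close paralogs, between which reads can be split with error. Of the 10 paralogs, Serpina3g, Serpina3f, Serpina3i and Serpina3m had the most reads. Serpina3g was lower in neurosphere-derived CT2A than GL261 (log2 fold change -3.43 ± 0.45, adjusted p = 1.51e-04, edgeR) and did not pass the test in sorted cells (-0.82 ± 0.52, adjusted p = 0.217) or bulk tumors (0.14 ± 0.36, adjusted p = 0.861). Serpina3f had -1.02 ± 0.36 (adjusted p = 0.0415) and Serpina3i -3.50 ± 0.88 (adjusted p = 0.0103) in sorted cells. Serpina3m was listed at 0 in all 3 sorted CT2A libraries and at 0.939 to 3.97 CPM in sorted GL261 (adjusted p = 0.00329). Sorted GL261 cells had mean levels of 2.36 CPM of Serpina3m and 1319 CPM of Serpina3n, and misplaced Serpina3n reads cannot be told apart from reads of Serpina3m.

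**Figure D4:**
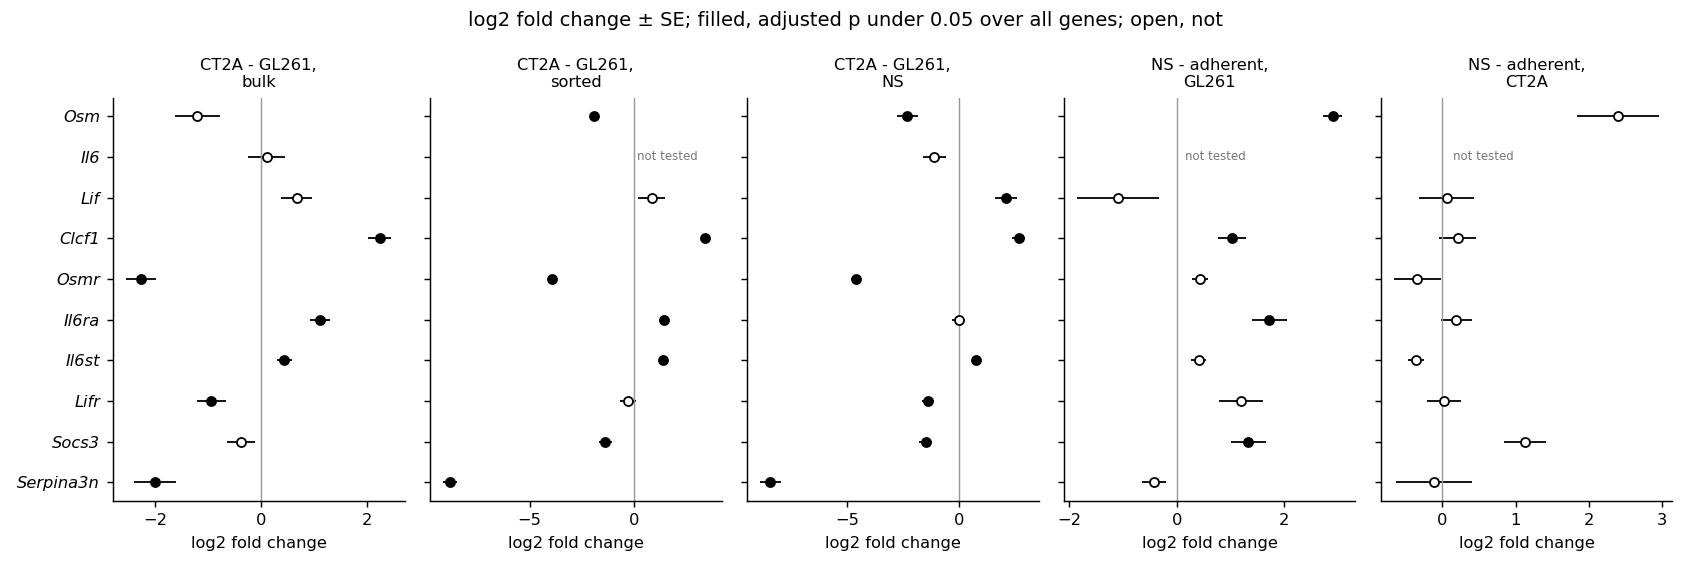
Log2 fold change with its standard error of each of the 10 genes in CT2A against GL261 (bulk, sorted and neurosphere-derived, NS) and in neurosphere-derived against adherent-derived cells of each line, filled where the adjusted p over all genes was under 0.05 and open where not. Serpina3n and Osmr lie far to the left and Clcf1 to the right in sorted and NS libraries, and Osm lies to the right in both growth comparisons.

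Counted over the set, 6 of the 10 genes passed an adjusted p of 0.05 in bulk tumors, 3 higher and 3 lower in CT2A, where 23.4% of all genes tested passed. In sorted cells 7 of the 9 genes tested passed, 3 higher and 4 lower, against 50.8% of all genes. In neurosphere-derived tumors 8 of 10 passed, 3 higher and 5 lower, against 59.6% of all genes. For neurosphere-derived against adherent-derived GL261, 4 of 9 passed, all higher, against 8.53% of all genes, and leaving out library 84, 89 or 90 left only Osm. Of all genes past the threshold in that comparison, 88.9% were higher. For CT2A, none of 9 passed by edgeR, against 0.167% of all genes, 3 had an unadjusted p under 0.05 and 2 (Osm and Socs3) passed by DESeq2, against 2.30% of all genes. The members were chosen with these values known, and nothing is read from the counts.

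The difference between the lines was itself compared between kinds of tumor. Between neurosphere-derived and adherent-derived cells, 2 of 9 members (Il6ra and Il6st) passed, against 6.67% of all genes, and this count ran from 0 to 2 with single libraries left out. Between bulk tumors and sorted cells, 4 of 9 (Clcf1, Osmr, Il6st and Serpina3n) passed, against 13.5% of all genes, and the count was 4 whichever library was left out. In all 4 the line difference was closer to 0 in bulk. The median log2 value of all genes in this last comparison was -0.12 with TMM scaling and 0 to within rounding with DESeq2 size factors, which turned the split of genes past the threshold from 919 higher and 1216 lower to 1063 and 917. Over the alternatives, the value ran from 1.4 to 1.75 for Osmr, from -1.37 to -1.09 for Clcf1, from -1.16 to -0.94 for Il6st and from 6.51 to 6.98 for Serpina3n.

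Other genes of the pathway were taken from a list of 45 genes that holds further ligands, receptors, kinases and STAT factors, adaptors and inhibitors, and response genes. In sorted cells, 27 of 39 tested passed, 10 higher and 17 lower in CT2A (69.2%, against 50.8% of all genes), with a median log2 fold change of -0.58 against -0.01 for all genes. In neurosphere-derived tumors 33 of 41 passed, 6 higher and 27 lower (80.5%, against 59.6%), with a median of -1.08 against 0.03. In this comparison 11 of 11 macrophage, 3 of 5 microglia, 6 of 7 endothelial and 5 of 6 astrocyte markers were also lower in CT2A, and their part in the shift of the list was not tested. In bulk tumors 12 of 43 passed, 6 higher and 6 lower (27.9%, against 23.4%), with a median of -0.02 against -0.05. The 9 genes that passed in the same direction in all 3 comparisons were Il11, Stat3, Stat5b, Bcl3, Cebpb and Bcl2l1, lower in CT2A, and Cntf, Jak1 and Pias3, higher in CT2A. Stat3, Stat5b and Pias3 kept all 3 calls under every alternative run. Bcl3 lost its bulk call in 6 of 16 alternatives, Jak1 in 3, Bcl2l1 in 2 and Cntf in 1. Of 15 alternatives each, Cntf lost its sorted call in 4, Il11 its neurosphere-derived call in 4 and its sorted call in 2, and Cebpb each of these calls in 1.

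Stat3, the factor at the center of the pathway, had 575 ± 93.3 CPM (SD, n = 4) in sorted GL261 and 106 ± 4.81 CPM (n = 3) in sorted CT2A, a log2 fold change of -2.49 ± 0.16 (edgeR adjusted p = 8.57e-06). It fell in CT2A by 2.16 on the log2 scale in neurosphere-derived tumors (adjusted p = 3.26e-05, edgeR) and by 1.0 in bulk tumors (adjusted p = 0.0142), and the difference between the lines was smaller in bulk than in sorted cells (1.4 ± 0.26, adjusted p = 0.00300). The related factor Stat5b was lower in CT2A at -1.59 ± 0.14 in sorted, -1.67 ± 0.18 in neurosphere-derived and -1.03 ± 0.15 in bulk libraries. Of the 7 kinases and STAT factors, only Jak1, the chief kinase on gp130, was higher in CT2A, by 1.17 ± 0.20 in sorted cells (adjusted p = 0.00131, edgeR), and 5 were lower there. In sorted cells 85.7% of the 7 thus passed, against 50.8% of all genes.

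Among the further ligands, interleukin-11 (Il11), which signals through Il11ra1 and gp130, was lower in CT2A, at 1.35 ± 0.393 CPM against 12.8 ± 3.71 CPM in GL261 bulk tumors (n = 4 each; log2 fold change -3.19 ± 0.37, edgeR adjusted p = 9.65e-04). The ciliary neurotrophic factor Cntf was higher in CT2A, at 4.80 ± 0.891 CPM against 1.02 ± 0.739 CPM in sorted cells (2.14 ± 0.72, adjusted p = 0.0359), but its GL261 levels included libraries at 0. Il27ra, the chain for interleukin-27, had -3.51 ± 0.58 in sorted cells (adjusted p = 0.00129), at 3.94 CPM in GL261 and 0.345 CPM in CT2A, and a smaller line difference in bulk (2.68 ± 0.62, adjusted p = 0.0112).

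Of the inhibitors and adaptors, Pias3, which restrains STAT3, and Ptpn11, the phosphatase SHP2 that gp130 recruits, were higher in sorted CT2A (1.47 ± 0.18, adjusted p = 2.44e-04, and 0.96 ± 0.13, adjusted p = 4.04e-04, edgeR). Socs1, like Socs3 an inhibitor of Janus kinases, was lower (-2.07 ± 0.18, adjusted p = 4.02e-05). Both line differences of the higher pair were smaller in bulk, at -0.77 ± 0.24 for Pias3 (adjusted p = 0.0488) and -0.78 ± 0.20 for Ptpn11 (adjusted p = 0.0195), and that of Pias3 did not pass in 18 of 22 alternatives.

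Of the response genes on the list, 8 of 18 tested were lower and 3 higher in sorted CT2A cells (61.1%, against 50.8% of all genes). In CT2A bulk tumors, 3 of 20 were lower and 3 higher (30%, against 23.4% of all genes). In neurosphere-derived tumors 14 of 19 tested were lower in CT2A and 0 higher (73.7%, against 59.6% of all genes), where all 11 macrophage markers were also lower and their part was not tested. Among the 14 were Timp1, an inhibitor of metalloproteinases (-1.52 ± 0.14, edgeR adjusted p = 1.34e-05), Fgl2, a secreted fibrinogen-like protein of macrophages (-3.28 ± 0.30, adjusted p = 1.36e-05), and Bcl3, a partner of NF-kB (-2.05 ± 0.27, adjusted p = 1.10e-04). In sorted cells, Icam1, an adhesion molecule, was lower by -2.25 ± 0.23 (adjusted p = 8.76e-05). The chemokine Ccl2, an attractant of monocytes, was higher in CT2A in bulk (1.42 ± 0.26, adjusted p = 0.00593) and sorted cells (2.25 ± 0.49, adjusted p = 0.00508) and lower in neurosphere-derived tumors (-0.56 ± 0.22, adjusted p = 0.0472). Hp, the acute phase protein haptoglobin, was higher in CT2A bulk tumors (1.39 ± 0.30, adjusted p = 0.0114). Cebpb, an acute phase transcription factor, and Bcl2l1, which encodes the survival protein Bcl-xL, were lower in CT2A bulk tumors by -1.78 ± 0.34 and -0.80 ± 0.19.

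Growth as neurospheres went with a rise of response genes in GL261. Of 40 pathway genes tested in GL261, 13 were higher in neurosphere-derived than in adherent-derived libraries and none was lower (32.5%, against 8.53% of all genes), 11 of them among the 19 response genes tested. Most of all genes past the threshold here were also higher, 1037 against 130 lower (88.9%). The kinase gene Pim1 rose from 31.1 ± 11.2 (SD, n = 4) to 148 ± 17.6 CPM (n = 3; 2.28 ± 0.25, edgeR adjusted p = 0.00352), Ccl2 from 3.61 ± 2.03 to 53.3 ± 6.09 CPM (3.91 ± 0.46, adjusted p = 0.00440) and the survival gene Mcl1 by 1.25 ± 0.17 (adjusted p = 0.00760). Icam1 rose by 1.03 ± 0.15 (adjusted p = 0.00801) and the interleukin-4 receptor chain Il4ra by 3.41 ± 0.52 (adjusted p = 0.00949). These libraries were also those with 10 of 11 macrophage markers higher, and several of the genes are known from macrophages; the part of macrophages was not tested. The count was 6 without library 89, which had the highest macrophage sum. In CT2A, none of 37 passed by edgeR, against 0.167% of all genes, 7 had an unadjusted p under 0.05 and 4 passed by DESeq2, against 2.30% of all genes.

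The line difference of 5 of 39 pathway genes tested differed between neurosphere-derived and adherent-derived cells (12.8%, against 6.67% of all genes), all lower in the former: Ccl2 (-2.86 ± 0.50, edgeR adjusted p = 0.00787), Il4ra (-3.08 ± 0.63, adjusted p = 0.0128), Fgl2 (-2.56 ± 0.53, adjusted p = 0.0137), Mcl1 (-1.04 ± 0.23, adjusted p = 0.0166) and the inhibitor Cish (-1.66 ± 0.40, adjusted p = 0.0224), the last named after its values were seen. This count was 1 without library 89, 3 without sorted CT2A library 71 and 8 without CT2A library 59. Most of all genes past the threshold in this comparison were also lower, 788 against 134 higher. Between bulk and sorted libraries, 7 of 42 pathway genes passed (16.7%, against 13.5% of all genes), and 4 when GL261 library 83, CT2A bulk library 47 or CT2A sorted library 69 or 71 was left out. Among them Icam1 had 1.48 ± 0.29 (adjusted p = 0.00425).

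**Figure D5:**
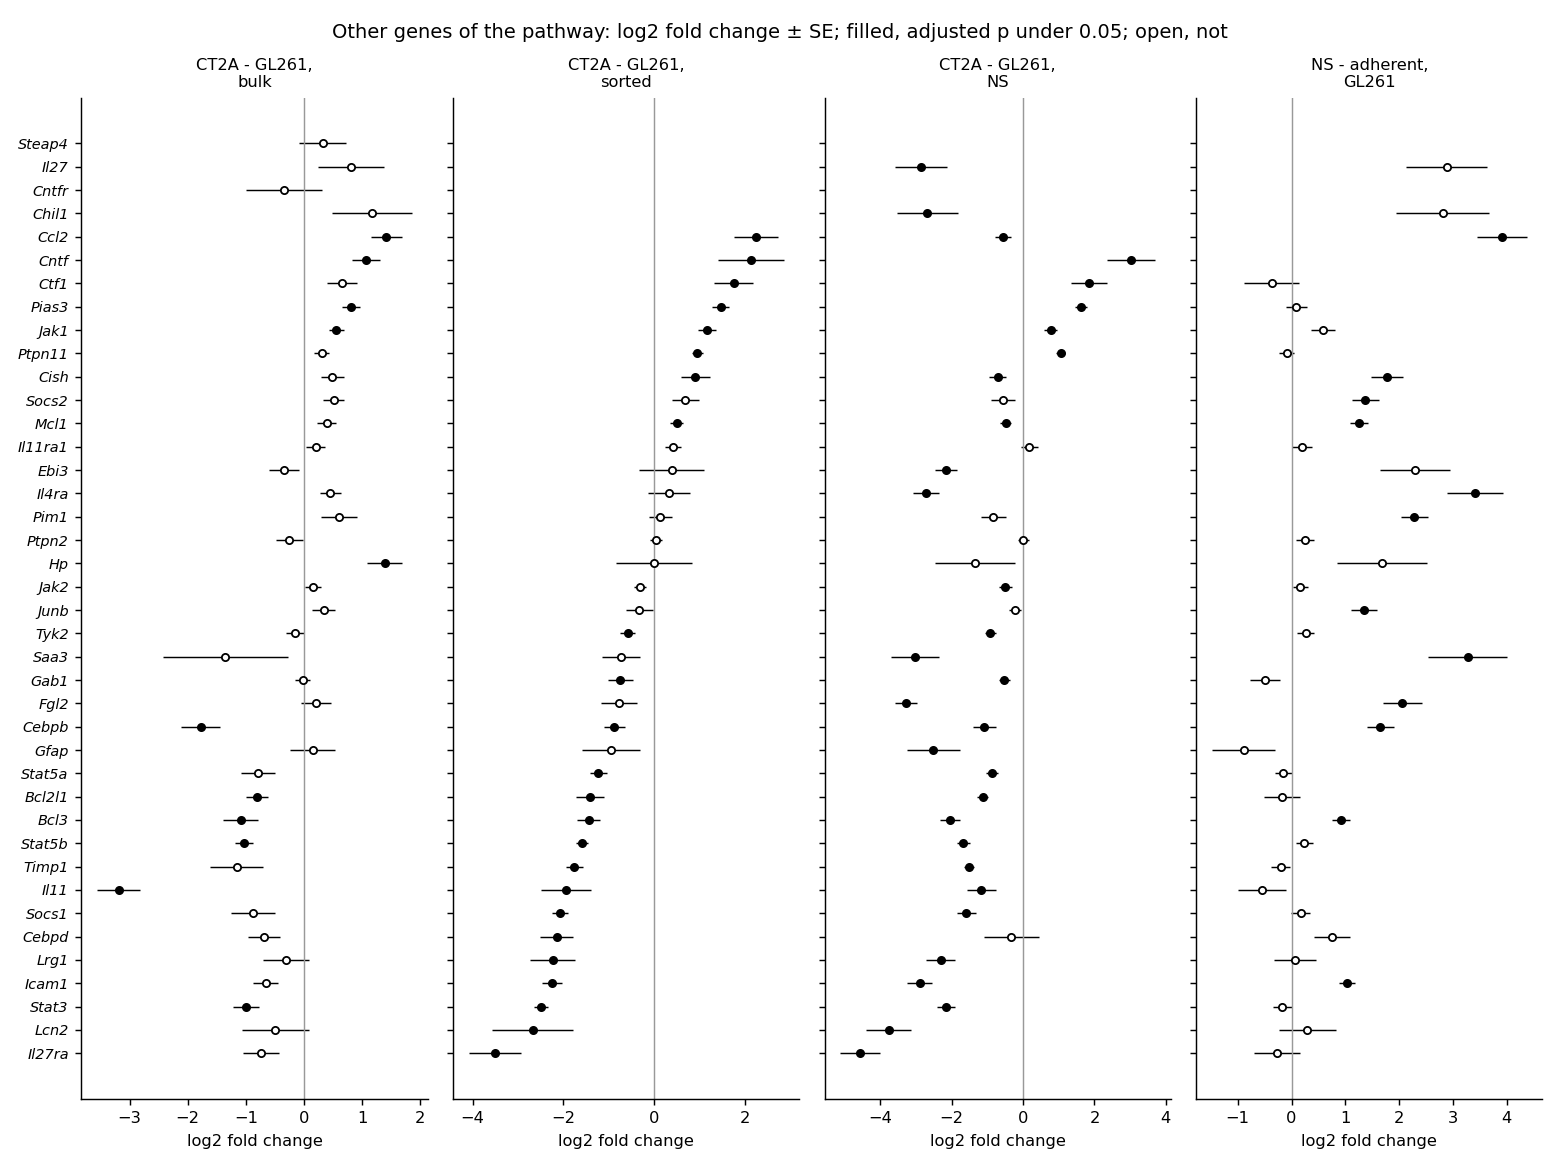
Log2 fold change with its standard error of the pathway genes reported outside the set, for CT2A against GL261 in bulk, sorted and neurosphere-derived (NS) libraries and for NS against adherent-derived GL261, filled where the adjusted p was under 0.05, ordered by the sorted comparison, with the 4 genes not tested there on top. Stat3 and Icam1 lie to the left in sorted and NS libraries. The filled points of the growth comparison all lie to the right of 0, the side of 88.9% of all genes past the threshold there.

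The share of each gene's reads in 1 transcript, that with the most reads over all 23 libraries, was tested, since the choice of the genes did not use it. Of 17 tests over 8 genes, with 50 or more reads in every library, none passed an adjusted p of 0.05 by two-sided exact permutation tests, and 3 had an unadjusted p of 0.0357, the smallest that 3 against 5 libraries allow, while 4 against 3 libraries cannot go below 0.0571. Even the p-values of 0.0357 became 0.194 after adjustment over the 17 tests. With so few libraries these tests could hardly pass, and equal shares are not read from them. For gp130 the transcript with the most reads was Il6st-203, which was not the leading transcript in sorted and neurosphere-derived GL261, where Il6st-201 held 50.2% and 58.4% of the summed reads. Il6st-203 held 70.4% ± 1.04 of the reads of Il6st in sorted CT2A (SD, n = 3) and 49.7% ± 6.25 in sorted GL261 (n = 4), an increase of 20.7 percentage points (exact p = 0.0571, adjusted p = 0.194). In neurosphere-derived tumors it held 65.2% ± 4.39 (n = 5) and 41.4% ± 0.595 (n = 3), 23.8 points apart (exact p = 0.0357, adjusted p = 0.194), and in bulk tumors 58.2% ± 4.56 and 54.1% ± 4.94 (n = 4 each, exact p = 0.229, adjusted p = 0.472). The ranges lay apart in both kinds of sorted libraries, at 69.2 to 71.2% against 40.5 to 54.4% and at 62.5 to 72.9% against 40.7 to 41.7%. Most other reads were given to Il6st-201, also protein-coding. Clcf1-203, annotated as a retained intron, held 44.5% ± 7.19 of Clcf1 reads in neurosphere-derived CT2A (n = 5) and 26.1% ± 6.51 in GL261 (n = 3; exact p = 0.0357, adjusted p = 0.194), where GL261 had few reads. For Il6ra, Il6ra-202 held 52.4 to 67.3% of the reads on average in each group, beside a second protein-coding transcript.

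Position on a chromosome was not used to choose the genes, and it is given as a description. In sorted cells, the median log2 fold change of CT2A against GL261 was 0.83 over 664 genes of chromosome 3 (Il6ra at 1.43), 0.62 over 475 genes of chromosome 19 (Clcf1 at 3.39), 0.33 on chromosome 13 (Il6st at 1.42) and -0.35 over 554 genes of chromosome 15 (Osmr at -3.90 and Lifr at -0.27), against -0.01 for all autosomes. Chromosome 12 had a median of 0.26, with Serpina3n at -8.81, and chromosome 11 of -0.17, with Osm at -1.89 and Socs3 at -1.36. Clcf1 and Serpina3n lay outside the range from the 5th to the 95th percentile of their chromosome, -2.30 to 2.57 and -2.71 to 2.58, and Osmr lay within that of chromosome 15, -4.31 to 2.68. Il6ra and Il6st lay within theirs.

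Genes of the most similar pattern were found by Pearson correlation of log2(CPM + 1) over the 23 libraries among 12440 genes with a mean of 5 CPM or more. Libraries of a group share line and kind of tumor, and the groups differ in these. High values are therefore common and are given as a description. The closest to Osm were Ccrl2 (0.981), Cd14 (0.966) and Btg2 (0.966), of which Cd14 is a macrophage and monocyte receptor. With the mean of each group subtracted, these values stayed at 0.868, 0.860 and 0.809. The closest to Osmr were Syt4 (0.990), Chl1 (0.987) and Zfp385b (0.986), and those to Serpina3n were Olig1 (0.986), Chl1 (0.985) and Wscd1 (0.984), among which Olig1 is a transcription factor of the oligodendrocyte lineage. The closest to Socs3 was Osm (0.939), followed by the interferon receptor chain Ifnar2 (0.934) and Cd14 (0.932). With group means subtracted, these values were 0.562, 0.836 and 0.558. Clcf1 was closest to Inhba (0.969), which encodes an activin chain, Shcbp1 (0.969) and Arhgap22 (0.967), but with group means subtracted these values were 0.264, 0.242 and 0.300. Il6st was close to Foxo1 (0.950) and Gnaq (0.946), Il6ra to Tpd52 (0.957), B4galt1 (0.953) and Mmp14 (0.950), and Lifr to Iqgap2 (0.914), Tm6sf1 (0.900) and Dock10 (0.860). Lif was closest to Glipr2 (0.869), Ccdc88c (0.837) and Safb (0.837), and Il6 to Hcar2 (0.891), Tnf (0.873) and Ccl4 (0.861), the last pair being macrophage cytokines. With group means subtracted, Tnf and Ccl4 had 0.438 and 0.459 with Il6. When 0.1 in place of 1 was added to the CPM, Tnf and Ccl4 were no longer among the closest to Il6. The genes closest to Serpina3n then also changed, as did some of those closest to Osmr.

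Markers of other cell types that could remain beside the tumor cells were tested in the same fits. Between sorted lines, where 50.8% of all genes passed, 5 of 7 endothelial, 3 of 6 oligodendrocyte and 2 of 6 astrocyte markers were lower in CT2A, and 3 of 6 tested pericyte and fibroblast markers, 1 of 5 microglia and 1 of 6 astrocyte markers were higher. Between neurosphere-derived lines, where 59.6% of all genes passed, 6 of 7 endothelial, 5 of 6 astrocyte, 4 of 6 oligodendrocyte, 3 of 5 microglia and 3 of 3 tested T and NK cell markers were lower in CT2A, and of 6 tested pericyte and fibroblast markers 2 were higher and 2 lower. Neutrophil markers summed to 3.03 to 57.1 CPM in the 15 sorted libraries, with Ly6g at 0 throughout sorted CT2A, neurosphere-derived GL261 and CT2A bulk tumors. In bulk tumors, where 23.4% of all genes passed, 3 of 7 pericyte and fibroblast markers were higher in CT2A. Lower there were 1 of 7 endothelial and 1 of 5 microglia markers, and of 6 astrocyte markers 1 was higher and 1 lower. Of neuron markers, 2 of 6 tested were lower in sorted CT2A. In neurosphere-derived CT2A, 2 of 5 tested neuron markers were lower and 1 higher. Of 4 tested neutrophil markers, 1 was lower and 1 higher in neurosphere-derived CT2A. The part of these cells in the values of the 10 genes was not tested.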

How the data were processed

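RNA sequencing libraries of ex vivo tumors were quantified by the authors with Salmon against the mouse transcriptome (mm10), and the deposited tables hold estimated counts and TPM per transcript. The authors also deposited RSEM (1.3.3, after STAR 2.7.7a) expected counts and TPM for bulk and sorted groups, used here as an alternative. Estimated counts were summed per gene and rounded. Reads of transcripts without a gene (0.0413 to 0.1522% of a library) were left out. Groups were compared with edgeR 4.0.16 (R 4.3.3), quasi-likelihood test, TMM normalization, genes with a mean normalized count above 10, p-values adjusted after Benjamini-Hochberg and called below 0.05. The standard error is the log2 fold change divided by the square root of F. DESeq2 1.42.0, other scalings and filters, and leaving out each library were tried. The tests were checked on simulated data. Exact permutation tests used scipy 1.17.1. No library pair was a duplicate (lowest mean chi-square per gene 5.30). The authors count their bulk and adherent-line sorted samples as mice, although they give more mice than there are libraries here for sorted GL261. Labels do not tie single libraries to animals. For neurosphere-derived libraries no count of mice was found, and the spread that p-values measure there may be technical.

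Members, lists and tests were chosen with earlier results of these data known. Named were all 10 members, pathway genes past the threshold in 1 direction in all 3 line comparisons, up to 4 higher and 4 lower pathway genes per comparison by smallest p, 3 genes of most similar pattern per member and the 4 Serpina3 paralogs with most reads. A few of these genes are not reported here.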

Additional observations from a re-analysis of the deposited data

Results flagged for a closer look

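Single libraries lay far from the rest of their group in 6 of the 40 groups of 4 or more values examined for the 10 genes, where chance gives about 2. For Il6, these were CT2A bulk library 48 at 0.369 CPM and sorted GL261 library 82 at 0.701 CPM, both on few reads. Library 48 had 4 reads where libraries 39, 40 and 47 had 5 each. That flag rests on tied counts, for which the number given by chance does not hold. For Lif, GL261 bulk library 417 had 14.1 CPM and sorted GL261 library 81 had 11 CPM. Clcf1 had 86.2 CPM in CT2A neurosphere-derived library 60, and Il6ra had 106 CPM in library 59 of the same group.

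The difference between CT2A and GL261 itself differed between kinds of tumor for several pathway genes (edgeR interaction term). Between neurosphere-derived and adherent-derived cells, the log2 values were -1.66 for Cish, -3.08 for Il4ra, -2.86 for Ccl2, -1.04 for Mcl1 and -2.56 for Fgl2. Between bulk tumors and sorted cells, they were 2.68 for Il27ra, 1.4 for Stat3, -0.78 for Ptpn11, -0.77 for Pias3 and 1.48 for Icam1.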

How the results depend on the processing

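No value past the threshold changed sign, but 8 log2 fold changes of members that were not past it took both signs over the alternatives, such as Il6ra in neurosphere-derived tumors (-0.29 to 0.39) and Lif between bulk and sorted libraries (-1.29 to 0.03). Of 1093 alternative values of the members' log2 fold changes, 1079 moved by less than their spread. That spread was the largest SD of log2(CPM + 1) within a group compared, not the standard error of the fold change. Under some alternatives, calls were lost for Il6st and Lifr in bulk and for Lif in neurosphere-derived tumors. Others were lost for Clcf1, Il6ra and Socs3 in the GL261 growth comparison. The line difference between neurosphere-derived and adherent-derived cells lost its call for Il6ra and Il6st. Of 845 alternative values of the named pathway genes, 779 kept their side of the threshold and 66 lost it. The loss was most frequent for Pias3 between bulk and sorted libraries. Neurosphere-derived against adherent-derived GL261 gave 1167 genes, 1873 by DESeq2. For CT2A it gave 22 genes by edgeR, 302 by DESeq2, 35 with DESeq2 size factors, 87 with no minimum count, 40 with filterByExpr and 60 with all 6 groups in 1 fit. For pathway genes in CT2A, DESeq2 gave 4, and no minimum, filterByExpr and the joint fit gave 1 each; for the 10 members, DESeq2 gave 2 and the joint fit 1. The line difference between neurosphere-derived and adherent-derived cells gave 922 genes, 1541 by DESeq2. The order of group means was the same by TPM for 4 of 10 members. Of 30 genes of similar pattern, 3 were kept with group means subtracted. The cause of these changes was not tested.

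With each library left out, bulk tumors gave 2474 to 4777 genes, 8 to 15 pathway genes and 4 to 8 members, sorted cells 5556 to 8922, 19 to 31 and 7 to 8, and neurosphere-derived tumors 6894 to 9110, 26 to 37 and 8. The growth comparison gave 307 to 2435, 6 to 16 and 1 to 5 in GL261 and 0 to 191, 0 to 2 and 0 in CT2A. The line difference gave 261 to 1267, 1 to 8 and 0 to 2 between neurosphere-derived and adherent-derived cells, 1435 to 2420, 4 to 8 and 4 between bulk and sorted libraries, and the transcript shares 0. The exact tests of transcript shares could hardly pass with so few libraries, so that their 0 does not show stability. No paired analysis was possible because the sample numbers of the labels are not shared between groups. Few reads limit Il6 in all groups, Osm in CT2A bulk tumors and Serpina3n in sorted CT2A cells.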
